A study of Homo sapiens with 6 samples.

Results

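Matricellular proteins are secreted proteins that sit in the extracellular matrix and change how cells adhere to it, rather than bearing load themselves. The 10 genes described here were taken as a named list from 64253 identifiers in a table of RNA read counts: the collagen-binding protein gene SPARC, its relatives SPOCK1, SPOCK2 and FSTL1, the fibronectin gene FN1, the tenascin gene TNC, the thrombospondin genes THBS1 and THBS2, and the fasciclin domain genes POSTN and TGFBI. The genes belong together by what their proteins do, but they were picked from earlier results of the comparison below, that is from their CPM and fold changes between the groups given here. Their levels, fold changes and adjusted p-values are therefore a description and not independent evidence. Fibronectin is assembled by cells into fibrils that other matrix proteins bind. In tumours these genes are expressed by cancer cells as well as by stromal fibroblasts, and many of them respond to TGF-beta.

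RNA came from NCI-H1299, a human lung cancer cell line that the labels call lung adenocarcinoma. The wild type group had 3 libraries. The MTSS1 overexpressing group had 3 libraries from cells carrying an expression plasmid for mCherry-tagged MTSS1, a membrane-binding scaffold protein of the actin cytoskeleton, after hygromycin selection and cell sorting. Wild type cells got no control plasmid that the labels name, so effects of MTSS1 cannot be told apart from those of the tag, the selection or the sorting. The protocol also names HEK293T cells in connection with the transfection. Whether the 3 libraries of a group were grown separately is not said, and each p-value then reflects library-to-library spread, which may be technical.

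Libraries held 13883380 to 29479453 counts. A level is given as CPM, the read count divided by the TMM-scaled size of its library, and a gene is said to have risen or fallen where edgeR's quasi-likelihood test, two-sided and adjusted over the 16091 genes with enough counts, gave an adjusted p under 0.05. MTSS1 itself stood at 18.0 to 24.3 CPM in wild type and 544 to 568 CPM in overexpressing libraries. Wild type replicate 1 and MTSS1 overexpressing replicate 1 stood apart from the other 4 libraries on the first principal component. Of 6 markers of lung epithelium, SFTPB, SFTPA1 and SCGB1A1 had 0 counts in all libraries and NKX2-1 reached at most 2.92 CPM. The summed level of 7 epithelial markers lay at 571 to 853 CPM in wild type and 260 to 470 CPM in overexpressing libraries. Nearly all of that sum was the keratin genes KRT8, which fell (165 to 49.6 CPM on average; adjusted p = 0.011, edgeR), and KRT18 (522 to 299 CPM; 0.061). EPCAM, KRT7 and ESRP1, all under 4 CPM, differed in the other direction (0.66, 1.05 and 0.51 on the log2 scale) and did not pass, and CDH1 and KRT19 were too low to test. The summed level of 8 mitochondrial transcripts lay at 22837 to 32742 and 32879 to 38254 CPM. Fibroblasts are rich in matricellular transcripts, and the summed level of 8 fibroblast markers was 4.43 to 6.19 and 4.92 to 8.88 CPM, with 2 counts of DPT and 8 of LUM in all. Sums of 6 endothelial markers (2.45 to 4.62 and 1.80 to 2.35 CPM, CLDN5 at 0) and 6 leukocyte markers (4.51 to 6.15 and 9.22 to 11.8 CPM) were of the same order as the fibroblast sum. The groups did not overlap in either sum. ITGAM was the largest part of the leukocyte sum in every library. It rose from 3.57 ± 0.389 to 8.16 ± 1.89 CPM (SD, n = 3; 1.19 on the log2 scale, adjusted p = 0.021 by edgeR). It passed in 1 of 6 fits without 1 library. The part of these epithelial, mitochondrial, endothelial and leukocyte differences in the results was not tested.

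SPARC fell and FN1 rose in the overexpressing cells, and the other 8 genes did not pass the test or were too low for it. In bulk RNA, fewer cells with a transcript and less of it per cell cannot be told apart. Of the 10 genes, 6 had enough counts: 1 rose, 1 fell and 4 did not pass, where 4.28% of all genes tested passed in either direction (1.82% higher, 2.45% lower). The CPM of the 2 groups did not overlap for 4 of the 6, with SPARC, TNC and TGFBI lower and FN1 higher in every overexpressing library. Over all genes tested, 13.5% did not overlap and were lower, and 12.1% did not overlap and were higher. The median log2 fold change of the 6 genes was -0.16, beside 0.00 over all genes tested. Of the alternatives, each set against its own background, DESeq2 called SPARC, FN1 and TNC (7.74% of all genes passed), and fits without 1 library called at most 1 of the 10. Over all genes 2.06%, 2.1% and 0.874% passed without wild type replicate 1, 2 or 3, and 1.96%, 1.51% and 1.18% without overexpressing replicate 1, 2 or 3. The share was 4.25% with DESeq2 size factors, 4.38% with library totals, 5.19% with no filter on low counts, 22.7% with neighbouring library titles as a block, 0.807% without both replicate 1 libraries and 2.09% against neighbouring genes.

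Per kilobase of exon, wild type cells expressed FSTL1 most, at a mean of 12.3 CPM per kb. TGFBI followed at 8.12, THBS1 at 6.07, FN1 at 2.07, SPARC at 1.02 and TNC at 0.386 CPM per kb. Each of these 6 lay above the next in every wild type library. Below TNC came SPOCK2 at 0.0720, POSTN at 0.0216, THBS2 at 0.0197 and SPOCK1 at 0.00947 CPM per kb, and neighbours in that order overlapped from SPOCK2 down. In overexpressing cells FSTL1 again stood first at 12.7 CPM per kb, and THBS1 (7.83) and TGFBI (6.28) overlapped. FN1 (3.08) and SPARC (0.306) kept their places without overlap. TNC (0.126) overlapped SPOCK2 (0.0352). Length here is that of all annotated exons merged, 17315 bases for FN1 and 4831 to 9636 bases for the others, so a gene with many rarely used exons is set too low.

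**Figure D1:**
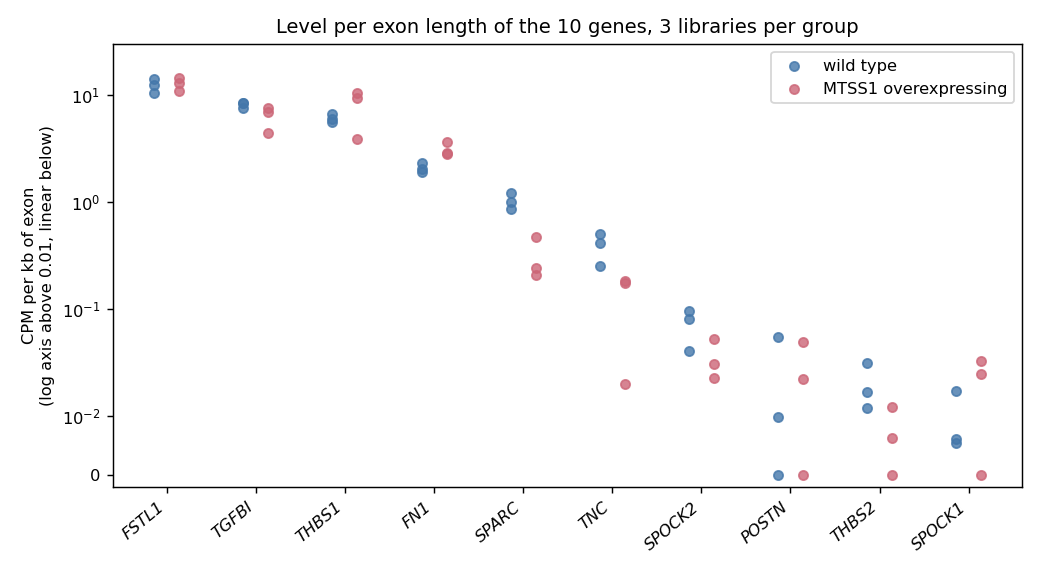
Level per kilobase of exon (y axis, CPM per kb, logarithmic above 0.01 and linear below) of the 10 genes in the order of their wild type means. Points are the 3 libraries of each group. FSTL1, TGFBI and THBS1 lie highest, SPARC and TNC points of the overexpressing group lie below those of wild type, and the last 4 genes lie near 0.

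SPARC encodes an acidic, cysteine-rich glycoprotein that binds collagen and calcium and loosens cell adhesion. Its gene (ENSG00000113140) spans chromosome 5, 151661096 to 151687165, on the minus strand of GRCh38. SPARC stood at 4.14, 5.89 and 4.80 CPM in wild type replicates 1 to 3 (78, 178 and 128 counts) and at 2.28, 1.15 and 1.00 CPM in overexpressing replicates 1 to 3 (31, 30 and 25 counts). The groups did not overlap, and overexpressing replicate 1 was the highest of its group. The mean went from 4.94 ± 0.884 to 1.48 ± 0.697 CPM (SD, n = 3), 3.47-fold lower in the fit (-1.80 ± 0.34 SE on the log2 scale; adjusted p = 0.022 by edgeR). Without 1 library the log2 fold change lay between -2.19 and -1.57. The call was lost without wild type replicate 2 or 3 or overexpressing replicate 2 or 3, with adjusted p between 0.074 and 0.086, while it held without either replicate 1. The 50 nearest tested genes had a median log2 fold change of 0.02.

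FN1 encodes fibronectin, which integrins bind through its RGD sequence. Its gene (ENSG00000115414) lies on chromosome 2, 215360440 to 215436172, on the minus strand. FN1 stood at 35.0, 39.7 and 33.0 CPM in wild type and at 49.2, 62.5 and 48.2 CPM in overexpressing replicates 1 to 3. Every overexpressing library lay above every wild type library, and replicate 2 was the highest of each group. The mean went from 35.9 ± 3.40 to 53.3 ± 7.99 CPM (SD, n = 3), a 1.49-fold rise (0.57 ± 0.13 SE on the log2 scale; adjusted p = 0.038 by edgeR). The call was lost in each of the 6 fits without 1 library (adjusted p 0.054 to 0.14, log2 fold change 0.44 to 0.65), with library totals in place of TMM (0.054) and against its 50 neighbours (0.067).

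TNC encodes tenascin-C, a hexameric protein that is laid down in wounds and tumour stroma and counters adhesion to fibronectin. Its gene (ENSG00000041982) lies on chromosome 9, 115019578 to 115118257. TNC stood at 4.77, 2.41 and 3.98 CPM in wild type and at 1.76, 0.192 and 1.68 CPM in overexpressing replicates 1 to 3. The groups did not overlap, and replicate 2 was the lowest of each, with 5 counts in the overexpressing library. The log2 fold change of -1.65 (SE 0.61) was near that of SPARC, but with the wider spread TNC did not pass (edgeR adjusted p = 0.17). DESeq2 called it (adjusted p = 0.033), as did edgeR with neighbouring library titles as a block (adjusted p = 0.0054). Without overexpressing replicate 2 its log2 fold change was -1.10 (edgeR adjusted p = 0.19).

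The 250 bases before the RefSeq start of SPARC, FN1 and TNC are shown because these 3 had the lowest and the highest fold changes among the 6 members of the list that were tested. They lie at chr5:151686916-151687165, chr2:215436069-215436318 and chr9:115118158-115118407 (GRCh38.p14, all on the minus strand, RefSeq). Capitals mark matches on either strand to the motifs named after the sequences.
SPARC: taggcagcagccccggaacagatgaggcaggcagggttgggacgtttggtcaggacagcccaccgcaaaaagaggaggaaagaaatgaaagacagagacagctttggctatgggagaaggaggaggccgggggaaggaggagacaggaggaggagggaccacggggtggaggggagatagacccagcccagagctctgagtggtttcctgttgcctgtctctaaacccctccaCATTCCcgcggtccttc
FN1: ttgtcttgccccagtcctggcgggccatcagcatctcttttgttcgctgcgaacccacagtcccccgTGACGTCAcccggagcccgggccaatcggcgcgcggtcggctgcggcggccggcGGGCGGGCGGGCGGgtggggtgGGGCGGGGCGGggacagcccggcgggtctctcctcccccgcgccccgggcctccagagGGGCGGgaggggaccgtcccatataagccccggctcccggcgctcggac
TNC: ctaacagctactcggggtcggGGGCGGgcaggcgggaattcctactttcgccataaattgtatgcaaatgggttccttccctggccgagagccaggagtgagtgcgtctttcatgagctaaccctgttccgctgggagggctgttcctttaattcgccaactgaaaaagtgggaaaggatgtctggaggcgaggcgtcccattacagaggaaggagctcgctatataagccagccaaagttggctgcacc
Searched were the TATA box TATAAA (in 10.7% of 35116 such windows), the GC box GGGCGG (42.6%), the cAMP response element TGACGTCA (1.65%), the AP-1 site TGANTCA (6.57%), the TEAD site GGAATG (11.9%) and the NF-κB consensus (9.96%), each on both strands. The FN1 window held 6 GC boxes, some of which overlap one another, and 1 cAMP response element from -183 to -176 of the start. The SPARC window held 1 TEAD match from -17 to -12, and the TNC window 1 GC box from -229 to -224. The NF-κB consensus was not matched in these 3 windows and had 1 match in that of FSTL1. Among the genes too low to test, the THBS2 and POSTN windows held the letters TATAAA from -29 to -24. No window of the 6 tested genes held these exact letters. The FN1 and TNC windows hold TATAAG near the start, which differs in its last letter and was not searched, so a TATA box is not shown to be absent there. GC content was 59.2% for SPARC, 76.4% for FN1 and 54.8% for TNC, beside a median of 58% over all windows. GENCODE 29 places the outermost start of SPARC at the far end of its window and those of FN1 and TNC inside theirs. All of the SPARC window and part of the FN1 and TNC windows can therefore be transcribed. A match is a string of letters and not a measured site.

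**Figure D2:**
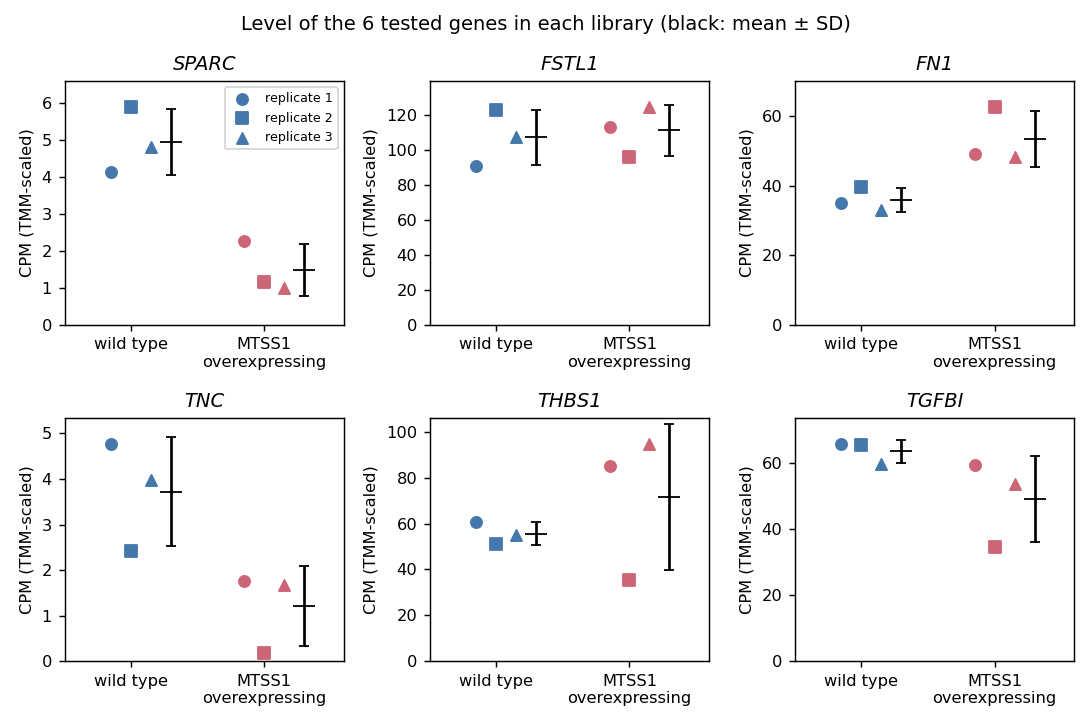
CPM (y axis, from 0) of the 6 tested genes in wild type (blue) and MTSS1 overexpressing (red) libraries, with a marker shape for each replicate. Black bars are the mean ± SD of 3 libraries. SPARC, TNC and TGFBI points are lower and FN1 points higher in the overexpressing group without overlap, and the square of overexpressing replicate 2 is the lowest of its group for TNC, THBS1, TGFBI and FSTL1.

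THBS1 encodes thrombospondin-1, a trimeric protein that inhibits vessel growth, activates latent TGF-beta and binds CD47. Its gene (ENSG00000137801) lies on chromosome 15, 39581079 to 39599466. THBS1 stood at 60.8, 51.0 and 55.1 CPM in wild type and at 85.0, 35.4 and 94.7 CPM in overexpressing replicates 1 to 3. Overexpressing replicates 1 and 3 lay above every wild type library, and replicate 2 lay below every one. With all libraries its log2 fold change was 0.36 (SE 0.29, edgeR adjusted p = 0.56). Without overexpressing replicate 2 it was 0.70 (SE 0.11) and passed (edgeR adjusted p = 0.028), in a fit where 1.51% of 16568 genes did. Its 50 neighbours on chromosome 15 had a median of -0.21, and against them its log2 fold change was 0.57 (edgeR adjusted p = 0.40). Exons of FSIP1 on the other strand share 448 bases with those of THBS1, but FSIP1 had only 125 and 73 counts in the 2 groups beside 8598 of THBS1 in all.

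TGFBI encodes a secreted fasciclin domain protein, named for its induction by TGF-beta, that links collagen to integrins. Its gene (ENSG00000120708) lies on chromosome 5, 136028895 to 136063818. TGFBI stood at 65.7, 65.3 and 59.4 CPM in wild type and at 59.1, 34.4 and 53.6 CPM in overexpressing replicates 1 to 3. The groups did not overlap, though overexpressing replicate 1 and wild type replicate 3 nearly met. Its log2 fold change of -0.38 (SE 0.17) did not pass (edgeR adjusted p = 0.27), but did with that block (-0.41, adjusted p = 0.037). Without overexpressing replicate 2 it was -0.17 (edgeR adjusted p = 0.46).

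FSTL1 encodes a secreted glycoprotein with a follistatin-like domain that binds BMP ligands. Its gene (ENSG00000163430) lies on chromosome 3, 120392293 to 120451253. FSTL1 stood at 91.1, 123 and 107 CPM in wild type and at 113, 95.9 and 125 CPM in overexpressing replicates 1 to 3. The groups overlapped, and the log2 fold change was 0.05 (SE 0.13, edgeR adjusted p = 0.88).

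For these 6 genes, overexpressing replicate 2 was the lowest library of its group 4 times and the highest once, for FN1. Over all genes tested it was the lowest of its group for 34.1% and the highest for 34.8%. CCN1 and CCN2, matricellular genes whose values were picked out after they were seen, had the same library lowest. Other tested matricellular genes had it highest, among them THBS3, THBS4, FBLN1, FBLN5, FST and ECM1. It was also highest for CCN3 (4.48, 10.3 and 5.08 CPM in overexpressing replicates 1 to 3) and MFGE8 (42.1, 59.8 and 33.6 CPM). CCN1 stood at 1146, 760 and 1140 CPM in overexpressing replicates 1 to 3, above 717 to 856 CPM in wild type except for replicate 2. CCN2 stood at 204, 101 and 217 CPM, below 240 to 273 CPM in wild type. In the unblocked edgeR fit of all libraries neither passed (adjusted p = 0.24 and 0.21), while CCN1 passed without overexpressing replicate 2 (0.53 on the log2 scale, adjusted p = 0.046). With neighbouring library titles as a block both passed, CCN1 at 0.33 and CCN2 at -0.65 on the log2 scale (adjusted p = 0.0048 and 0.0060, edgeR). Both also passed with no filter on low counts (adjusted p = 0.019 and 1.4e-06, edgeR). Over all genes 22.7% passed with the block and 5.19% without the filter. Neither gene passed by DESeq2, with the neighbour offset or without both replicate 1 libraries.

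**Figure D3:**
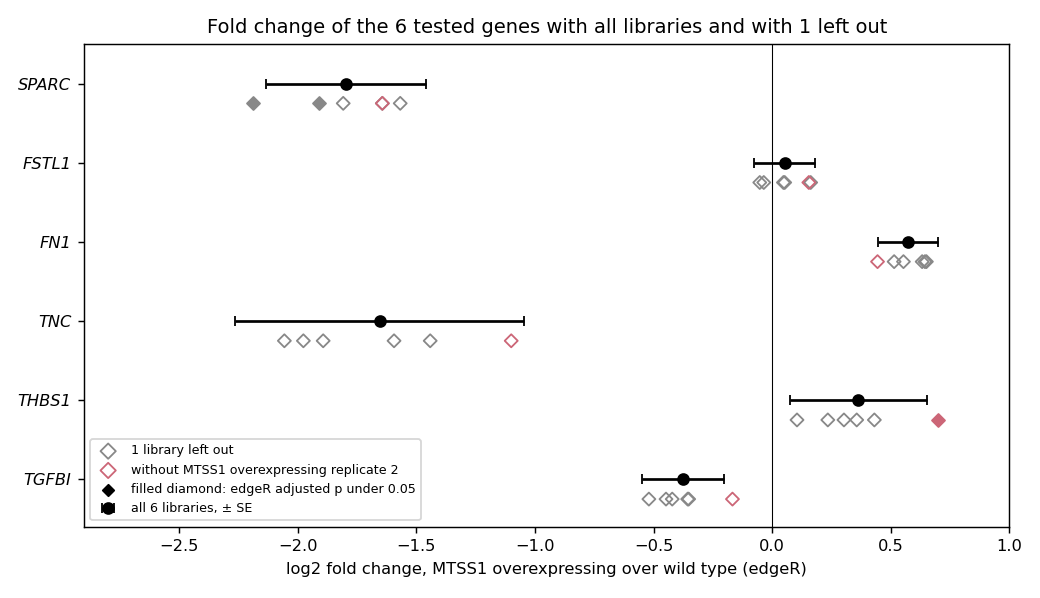
Log2 fold change (x axis) of MTSS1 overexpressing over wild type cells for the 6 tested genes. Black points are fits with all 6 libraries ± SE, and diamonds are fits without 1 library (red without overexpressing replicate 2, filled where edgeR adjusted p was under 0.05). SPARC is filled in 2 of 6 such fits, FN1 in 0 of 6, and THBS1 only without overexpressing replicate 2, where it is 0.70.

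The other 4 genes had too few counts for the test. SPOCK2, a testican proteoglycan of the SPARC family (ENSG00000107742, chromosome 10, 72059035 to 72089032), had 5, 19 and 14 counts in wild type and 2, 9 and 5 in overexpressing replicates 1 to 3. That is a ratio of pooled counts of 0.493 per unit of depth (exact 95% interval 0.257 to 0.906, counting error only), and the groups overlapped in CPM. SPOCK1, the related testican-1 gene, had 4 and 9 pooled counts (ratio 2.64, interval 0.736 to 11.7). THBS2, encoding thrombospondin-2, had 10 and 3 pooled counts (ratio 0.352, interval 0.0622 to 1.37). POSTN, encoding periostin, had 9 and 10 (ratio 1.30, interval 0.476 to 3.62), with 0 counts in 1 library of each group. A difference in these 3 was not detectable at this depth. Broadly expressed genes such as RPS9 (17 and 20 pooled counts) and B2M (34 and 23) are also listed near 0 in this table, so counts near 0 are listed values and not proof that a gene was silent.

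Genes related to these 10 were read in 4 lists, also drawn up with earlier results known. Shares in brackets are of all genes tested, first higher and then lower. Of 32 other matricellular genes, 17 were tested: 0 rose, 1 fell and 16 did not pass (edgeR, beside 1.82% and 2.45% of all genes; 2 higher and 4 lower at an unadjusted p under 0.05, where 9.15% and 10.7% of all genes were; 0 and 0 by DESeq2, beside 3.45% and 4.28%), with a median log2 fold change of -0.01. The gene that fell was EFEMP1, encoding fibulin-3 (45 and 4 pooled counts), from 0.590 ± 0.0683 to 0.0640 ± 0.0224 CPM (SD, n = 3; -3.14 ± 0.61 SE on the log2 scale, adjusted p = 0.025 by edgeR). EFEMP1 had enough counts for the test through its wild type libraries alone (11, 20 and 14 counts, against 1, 1 and 2 in overexpressing replicates 1 to 3). A gene admitted that way could only be called lower, and the same holds for SPOCK3 below. EFEMP1 passed in 0 of 6 fits without 1 library (highest adjusted p 0.11). Among SPARC's other relatives, SPOCK3 stood at 0.530, 1.39 and 0.638 CPM in wild type and 0.220, 0.231 and 0.360 CPM in overexpressing replicates 1 to 3, and the difference of -1.63 on the log2 scale did not pass (adjusted p = 0.13, edgeR).

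Of 25 receptor genes for these proteins, 22 were tested: 0 rose and 2 fell (edgeR, beside 1.82% and 2.45% of all genes; 0 higher and 5 lower at an unadjusted p under 0.05, where 9.15% and 10.7% of all genes were; 0 and 3 by DESeq2, beside 3.45% and 4.28%), with a median log2 fold change of -0.20. ITGA6, a subunit of laminin-binding integrins, fell from 772 ± 128 to 455 ± 76.8 CPM (SD, n = 3; -0.76 on the log2 scale, adjusted p = 0.027 by edgeR). SDC4, encoding syndecan-4, a coreceptor for fibronectin, fell from 98.2 ± 3.84 to 72.5 ± 6.07 CPM (SD, n = 3; -0.44 on the log2 scale, adjusted p = 0.027 by edgeR). The subunits of the classical fibronectin receptor did not pass: on the log2 scale ITGA5 differed by -0.19 (adjusted p = 0.34, edgeR) and ITGB1 by 0.14 (adjusted p = 0.38). Without 1 library ITGA6 passed in 2 of 6 fits and SDC4 in 0 (highest adjusted p 0.10 and 0.11).

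Of 29 genes for collagens and matrix assembly, 23 were tested: 2 rose and 0 fell (edgeR, beside 1.82% and 2.45% of all genes; 5 higher and 2 lower at an unadjusted p under 0.05, where 9.15% and 10.7% of all genes were; 3 and 1 by DESeq2, beside 3.45% and 4.28%), with a median log2 fold change of 0.22. Those that rose were COL6A1 and COL6A2, chains of the same collagen, type VI. They rose by 0.69 and 0.60 on the log2 scale (adjusted p = 0.014 and 0.027, edgeR), and they passed in 3 and 2 of 6 fits without 1 library. Both lie on chromosome 21, and against its 50 neighbours COL6A2 did not pass (adjusted p = 0.075, edgeR). The fibrillar collagen gene COL1A1, whose product SPARC binds, differed by 0.28 on the log2 scale (adjusted p = 0.69, edgeR).

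Of 23 genes of TGF-beta signalling, 21 were tested: 0 rose and 3 fell (edgeR, beside 1.82% and 2.45% of all genes; 1 higher and 8 lower at an unadjusted p under 0.05, where 9.15% and 10.7% of all genes were; 0 and 5 by DESeq2, beside 3.45% and 4.28%), with a median log2 fold change of -0.09. LTBP2, a latent TGF-beta binding protein gene, stood at 153, 135 and 136 CPM in wild type and 103, 94.2 and 94.2 CPM in overexpressing replicates 1 to 3 (-0.54 ± 0.08 SE on the log2 scale; adjusted p = 0.011 by edgeR). Its relative LTBP3 fell from 70.4 ± 10.6 to 42.9 ± 5.81 CPM (SD, n = 3; -0.72 on the log2 scale, adjusted p = 0.022 by edgeR), and the receptor gene TGFBR2 from 82.1 ± 7.82 to 59.9 ± 6.14 CPM (SD, n = 3; -0.46 on the log2 scale, adjusted p = 0.044 by edgeR). LTBP2, LTBP3 and TGFBR2 passed in 4, 3 and 0 of 6 fits without 1 library. The family did not fall as a whole: LTBP1 was higher without overlap (0.44 on the log2 scale) and LTBP4 differed by 0.04. Neither passed (adjusted p = 0.12 and 0.92, edgeR), though LTBP1 did with neighbouring library titles as a block (adjusted p = 0.016, edgeR). The ligand gene TGFB1 differed by 0.01 on the log2 scale and did not pass (adjusted p = 0.98, edgeR).

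**Figure D4:**
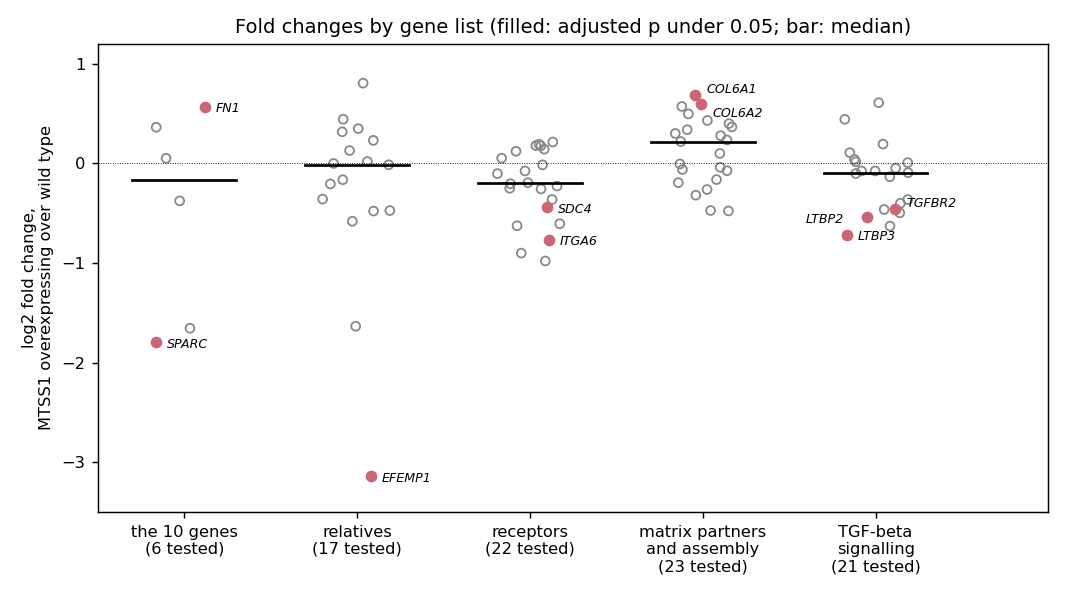
Log2 fold change (y axis, MTSS1 overexpressing over wild type) of the tested genes among the 10 and in 4 related lists. Filled points passed the edgeR test at an adjusted p under 0.05 and are named, and bars are medians, from -0.20 for the receptors to 0.22 for matrix partners. The SPARC, TNC, SPOCK3 and EFEMP1 points lie far below most others.

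The genes whose profiles over the 6 libraries came closest to SPARC were sought among 10811 tested genes with a symbol and a mean of at least 5 CPM, by the root-mean-square difference of log2 CPM centred on each gene's mean. LSR, a lipoprotein and tricellular junction receptor gene, came first at 0.33 log2 units, then RAET1E, encoding an NKG2D ligand (0.33), the adhesion molecule genes ALCAM (0.40) and ICAM1 (0.40) and the kinase gene WNK4 (0.40). The choice by profile over the same libraries fixes that they are lower in overexpressing cells, and their log2 fold changes lay between -2.24 for ICAM1 and -1.21 for WNK4. For FN1 the closest were CNBD2, GSTZ1, ZNF385A, MRAS and ARHGEF28, at 0.05 to 0.06 log2 units. Their log2 fold changes, likewise fixed in direction by the choice, lay between 0.53 for MRAS and 0.62 for GSTZ1.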

How the data were processed

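The values deposited by the authors are unnormalized read counts, whole numbers per Ensembl identifier, with 1 column per library. Per the submitters' processing notes, the authors used bcl2fastq, HISAT2 2.1.0, HTSeq and GRCh38; the labels' protocols give poly(A) selection, a directional kit and single reads of 50 cycles. Not given in the sources used here are the annotation release and whether counting used strand, so reads of antisense overlaps cannot be told apart. Symbols came from a name table and GENCODE 29 (41481 identifiers), and coordinates and exon lengths from GENCODE 29 on GRCh38. All 10 genes were found; the table of promoters held 9 of them.

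Counts were fitted in R 4.3.3 with edgeR 4.0.16 (TMM, filterByExpr, glmQLFit, glmQLFTest), wild type against MTSS1 overexpressing, 3 against 3, with Benjamini-Hochberg adjustment over all genes tested; the biological coefficient of variation was 0.162. The fit was tested on simulated data. Alternatives were DESeq2 1.42.0, its size factors, no TMM, no filter, each library left out, both replicate 1 libraries left out, a block of neighbouring title numbers, and an offset of the median log2 fold change of 50 neighbouring genes. Named were all 10 genes, MTSS1, list genes that passed, and the 5 closest profiles to SPARC and FN1; other list genes were chosen after their values were seen. Members, lists and libraries to leave out were chosen with earlier results of these data known. Profiles used log2 CPM with a prior count of 2. Intervals cover counting error only, since counts were pooled over the 3 libraries of each group and the spread between libraries was left out. Reads also had no molecular identifiers.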

Additional observations from a re-analysis of the deposited data

How the results depend on the processing

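Counts of genes that passed depended on the fit. Over all genes, 688 passed, against 1489 without a filter, 1185 with DESeq2, 337 with the neighbour offset, 132 without both replicate 1 libraries and 145 to 346 without 1 library. Of the 10 genes, 2 passed, against 1 with library totals, 5 without a filter (TNC, THBS1 and TGFBI added), 1 with the neighbour offset, 1 without both replicate 1 libraries and 0 to 1 without 1 library. For the relatives the count was 1, against 5 without a filter, 0 with DESeq2 (which gave EFEMP1 no adjusted p), 0 without both replicate 1 libraries and 0 to 2 without 1 library. For the receptors it was 2, against 0 without both and 0 to 2 without 1 library. For matrix partners it was 2, against 6 without a filter, 4 with DESeq2, 1 with the offset, 1 without both and 0 to 2 without 1 library. For TGF-beta signalling it was 3, against 7 without a filter, 5 with DESeq2, 0 without both and 0 to 2 without 1 library. FSTL1 changed sign: without 1 library its log2 fold change ranged from -0.05 (wild type replicate 1) to 0.16, and it was -0.04 without MTSS1 overexpressing replicate 3 and -0.065 without both replicate 1 libraries. The cause of these shifts was not tested, and the fits that leave libraries out also rest on fewer libraries.

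The library titles hold neighbouring numbers (2 and 3, 9 and 10, 12 and 13), each a wild type and an overexpressing library, but the labels do not say that they share a day or batch. Deviations from group means correlated across genes at 0.66, 0.34 and 0.38 within these pairs and at -0.40 to 0.10 between others. Deviations cancel out over the libraries of a group, so a positive value within a pair lowers those between others. The low values between others are therefore not separate evidence of pairing. With this replicate block 3651 of 16091 genes passed (22.7%). Of the 10 genes, 6 were tested and 4 passed (SPARC, FN1, TNC with adjusted p = 0.0054 and TGFBI with 0.037, edgeR). Of 17 relatives tested 4 passed (1 higher, 3 lower), and of 22 receptors 10 (3 higher, 7 lower). Of 23 matrix partners 9 passed (7 higher, 2 lower), and of 21 TGF-beta genes 8 (1 higher, 7 lower). SPOCK1, SPOCK2, THBS2 and POSTN were too shallow to test, and SPARC and TNC rest on 470 and 340 reads in all.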
